A study of Mus musculus with 2 samples.

Results

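The genes described here build the long scaffold of the sarcomere, the contractile unit of striated muscle, and its central M-band. They are titin (Ttn), nebulin (Neb), obscurin-like 1 (Obsl1) and the myomesins Myom1, Myom2 and Myom3, taken by their gene names. These 6 genes are part of 15747 annotated genes with a read. They held 390 of the 81166 transcript models of replicate 1 and 172 of the 74548 models of replicate 2, and 2423 and 1417 reads. Total RNA of gastrocnemius, a calf muscle, was sequenced as long reads, in which 1 read stands for 1 cDNA and can show how the exons of a molecule were joined. The series has 1 group, with no treatment and no contrast. Both libraries came from the gastrocnemius of female mice aged 14 days, F1 hybrids of the strain B6CASTF1/J, with 2 µg of RNA as input. Per its biosample label, replicate 1 came from 3 females, and for replicate 2 the label gives a female. Both carry 1 donor identifier and are labelled as biological replicates.

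Titin runs from the Z-disc, where thin filaments are anchored, to the M-band in the middle of the sarcomere, and serves as a molecular spring and a template for the thick filament. Nebulin lies along the thin filament with its C-terminal end in the Z-disc. Myomesins link neighbouring thick filaments in the M-band, and obscurin-like 1 binds both titin and myomesin there. Titin and nebulin transcripts are among the longest known, and both are extensively spliced.

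In the GENCODE M21 annotation of mm10, titin (ENSMUSG00000051747.14) lies at chr2:76703980-76982547 and nebulin (ENSMUSG00000026950.17) at chr2:52136647-52378474, both on the minus strand. Obsl1 (ENSMUSG00000026211.17) lies at chr1:75479310-75506452 on the minus strand. Myom1 (ENSMUSG00000024049.15) lies at chr17:71002633-71126856, Myom2 (ENSMUSG00000031461.4) at chr8:15057653-15133541 and Myom3 (ENSMUSG00000037139.15) at chr4:135759715-135815564, all on the plus strand. Exons are numbered below along the longest coding transcript of each gene, which has 347 exons in titin, 157 in nebulin, 20 in Obsl1, 38 in Myom1, and 37 in Myom2 and in Myom3. That transcript is 106824 bases long for titin and 22489 for nebulin, while for the other 4 genes it measures 5075 to 5679 bases.

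The 2 libraries differed in the length of the models to which their reads were assigned. Annotated genes took 1248854 reads in replicate 1 and 1106450 in replicate 2, so that 1 read was worth 0.801 and 0.904 CPM, which is the level scaled to the reads of annotated genes. Models were on average 2347 bases long per read in replicate 1 and 1545 bases in replicate 2. Reads in full splice chains, here models that the authors classed as annotated (Known) or as unannotated chains (NIC and NNC), made up 89.1% in replicate 1 and 80.6% in replicate 2. Such a model need not span its gene. A titin model of 5 exons at the 3′ end, with 27 and 16 reads, is in the NIC class. Fisher's exact test on reads, which compares these libraries and holds no spread between animals, called 20.6% of 8973 genes, 9.92% as higher in replicate 1 and 10.6% as higher in replicate 2. For a call, the adjusted p had to be under 0.05 and the scaled level at least doubled or halved. The defining markers of skeletal fibres were abundant: Acta1, Ckm, Myh4, Tnnt3, Atp2a1 and Pvalb together took 27.6% of reads in replicate 1 and 18.8% in replicate 2. Of the cardiac markers, Nppa and Myl7 had no read in either library, Myh6 had 9 and 2 reads, Tnni3 0 and 1, and Myl2, which slow skeletal fibres also use, had 120 and 317 reads. The 4 Schwann cell markers summed to 387 reads in replicate 1 and 2071 in replicate 2, and the 4 fibroblast markers to 9889 and 3759. Smooth muscle markers summed to 227 and 322 reads, endothelial ones to 435 and 406, erythroid ones to 1800 and 1397 and macrophage ones to 66 and 42. Their part in the results below was not tested. In such bulk tissue fewer cells of a type and less RNA per cell cannot be told apart.

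The myomesins Myom2 and Myom1 of the M-band were the most abundant of the 6 genes, followed by titin and nebulin, in the same order in both libraries. Myom2, also called M-protein and typical of fast fibres, had 1237 reads in replicate 1 and 768 in replicate 2, a level of 842 ± 210 CPM (mean ± SD, n = 2). Myom1, the myomesin found in all striated muscle, had 744 and 403 reads, or 480 ± 164 CPM. Titin had 239 and 149 reads (163 ± 40.1 CPM), and nebulin had 147 and 78 reads (94.1 ± 33.4 CPM). Myom2 was above Myom1 in each library, Myom1 above titin and titin above nebulin.

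Obsl1 and Myom3 were rare and did not separate from each other. Myom3, known from intermediate fibre types, had 26 reads in replicate 1 and 14 in replicate 2, which gives 16.7 ± 5.77 CPM. Obsl1 had 30 and 5 reads, or 14.3 ± 13.8 CPM, so it lay above Myom3 in replicate 1 and below it in replicate 2. By mean level Myom2 ranked 116th, Myom1 210th, titin 664th, nebulin 1158th, Myom3 4767th and Obsl1 5277th of the 15747 genes. Counts of cDNA molecules are not divided by length here. Divided by the length of the longest coding transcript, the mean levels came to 166 CPM per kb for Myom2, 85.0 for Myom1, 4.18 for nebulin, 3.00 for Myom3, 2.51 for Obsl1 and 1.53 for titin, which puts titin in the last place of the 6.

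**Figure D1:**
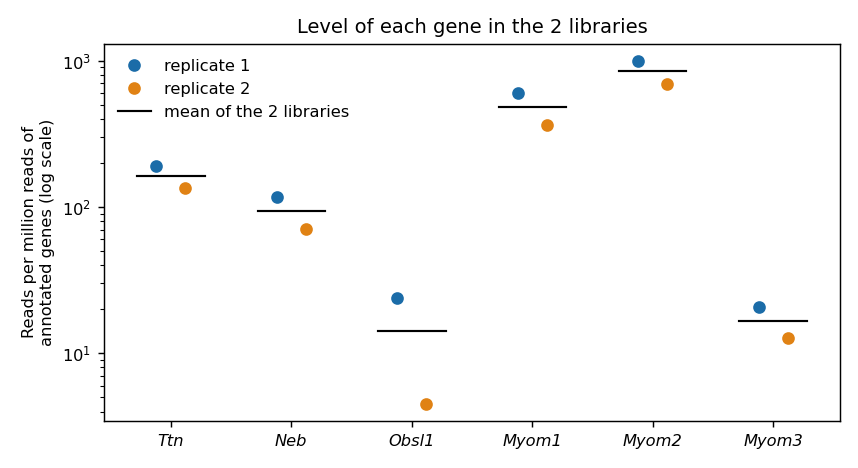
CPM, scaled to the reads of annotated genes (log scale), for each gene in replicate 1 and replicate 2, with a line at the mean of the 2 libraries. Replicate 1 lies above replicate 2 for all 6 genes, with the widest gap for Obsl1 (24.0 against 4.52 CPM).

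Each of the 6 genes had more CPM in replicate 1 than in replicate 2, and 1 of the 6 was called. The log2 ratio of replicate 1 over replicate 2 on the scaled levels was 2.10 for Obsl1 (Fisher's exact test, adjusted p = 0.00042), which passed both parts of the call. It was 0.54 for nebulin (adjusted p = 0.00134, Fisher's exact test), 0.51 for Myom1, 0.50 for Myom3, 0.32 for Myom2 and 0.31 for titin, all short of the doubling that a call needs. The adjusted p of Fisher's exact test was under 0.05 for titin (0.00381), Myom1 (1.37e-14) and Myom2 (1.19e-13) and was 0.288 for Myom3. The test used the reads without the scaling factors, so its p-values do not test the scaled ratios. With levels scaled by the total alone, the log2 ratio was 0.51 for Myom2 and 0.51 for titin, at the same adjusted p. The share of 1 in 6 stands beside the 20.6% of all genes that were called. The Obsl1 call rests on 5 reads in replicate 2, and it ended when the trend of the ratio with model length was taken out (log2 ratio 1.45, adjusted p = 0.109 by an exact binomial test). Under that setting the ratios of Ttn, Myom1, Myom2 and Myom3 turned below 0.

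The share of reads in models of a single exon differed between the libraries for Myom2, Myom1 and titin. Models of a single exon held 90 of the 1237 Myom2 reads of replicate 1, a share of 7.28% (5.96 to 8.86, Wilson 95% interval). In replicate 2 they held 470 of 768 reads, all in the last exon of the gene, or 61.2% (57.7 to 64.6). For Myom1 the share was 11.7% in replicate 1 (87 reads, 9.58 to 14.2) and 60.5% in replicate 2 (244 reads, 55.7 to 65.2). Titin had 18.8% in replicate 1 and 54.4% in replicate 2. Nebulin had 4.76% and 12.8% and Myom3 had 23.1% and 57.1%, each with intervals that overlap. Obsl1 had no read in a single-exon model in either library. Intervals cover counting error only. The shift went beyond these intervals for Myom1, Myom2 and titin. Over 226 genes whose longest coding transcript measures 4 to 7 kb, as the myomesin transcripts do, the median share of single-exon models was 3.36% in replicate 1 and 13.4% in replicate 2, with an upper quartile of 10.3% and 35.6%. Titin and nebulin have a longest coding transcript over 10 kb. Over 14 such genes the median share was 9.56% in replicate 1 and 30.1% in replicate 2. Their upper quartile was 17.8% and 53.5%.

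Counted in spliced models only, a setting chosen after the data were seen, the myomesins of the 2 libraries stood further apart. Myom2 then had 1147 reads in replicate 1 and 298 in replicate 2 (log2 ratio 1.46), and Myom1 had 657 and 159 (log2 ratio 1.56). Titin had 194 and 68 reads (log2 ratio 1.02). These 3 genes and Obsl1 were called in that setting, 4 of the 6, and 20.9% of all genes tested there were called. Whether a difference in the length of what was read lies behind this was not tested.

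**Figure D2:**
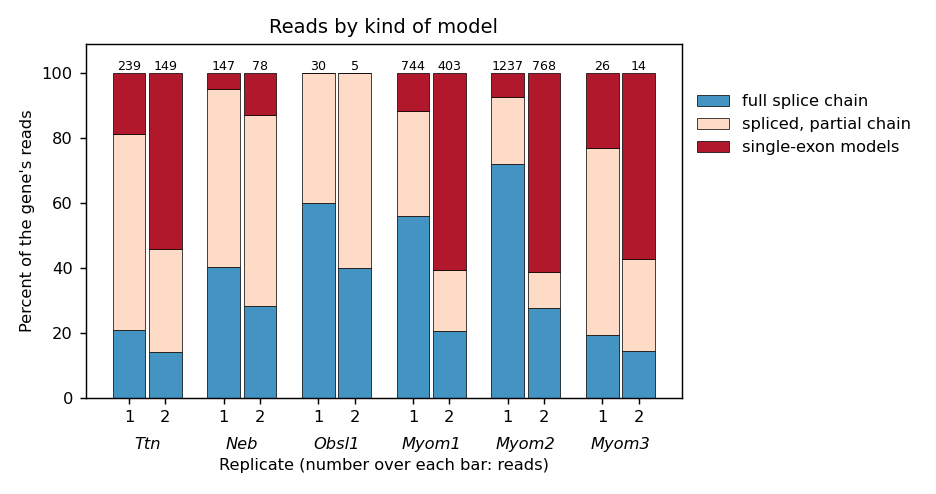
Percent of the reads of each gene, in replicate 1 and replicate 2, by kind of model, with the number of reads above each bar. Blue marks full splice chains (Known, NIC and NNC models), which need not span the gene. Pale marks other spliced models, and red marks single-exon models. Single-exon models hold 7.28% of Myom2 reads in replicate 1 and 61.2% in replicate 2.

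Most Myom1 and Myom2 reads of replicate 1, and a smaller share in replicate 2, reached from the start codon exon to the stop codon exon. Of the Myom2 reads, 895 of 1237 in replicate 1 (72.4%, with 95% limits of 69.8 and 74.8) and 218 of 768 in replicate 2 (28.4%, limits 25.3 and 31.7) held both the exon with the annotated start codon and the exon with the stop codon. For Myom1 these were 469 of 744 (63.0%) and 86 of 403 (21.3%), and for Myom3 7 of 26 (26.9%) and 3 of 14 (21.4%). Among spliced models alone the libraries were closer, at 78.0% and 73.2% for Myom2 and at 71.4% and 54.1% for Myom1. For Myom3 the shares were then 35% and 50%, of 20 and 6 reads. Partial reads of the myomesins were mostly short at the 5′ end. In replicate 1, the share of Myom2 reads that held an exon was 69.1% at exon 1, 91.7% at exon 36 and 99.6% at exon 37, the last. In replicate 2 exon 1 was held by 26.6% and exon 36 by 38.5% of reads, and exon 37 by all 768.

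A single splice pattern dominated Myom2. The annotated transcript Myom2-201, with 37 exons, took 800 reads in replicate 1 and 191 in replicate 2. The next spliced model, 37 exons long and unannotated as a whole, began at chr8:15060190 in place of exon 1 and had 23 and 4 reads. All 35 annotated internal Myom2 exons that could be tested were included in at least 95% of informative reads in both libraries. Another 7 internal Myom2 exons that could be tested match no annotated internal exon. All 7 lie in the first intron, and inclusion was at most 3.26%. The most used of them, chr8:15060799-15060924, was in 9 of 891 reads in replicate 1 and 7 of 215 in replicate 2. An exon that runs from the start of exon 23 to the end of exon 24, chr8:15111960-15113790, had too few informative reads for the test and was held by 5 reads of replicate 1 and 0 of replicate 2. Exon 31 also had a form 36 bases long in place of 39, seen in 7 reads of replicate 1 and 2 of replicate 2 against 1111 and 277 reads with the annotated exon.

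Myom1 was spliced almost without the exon that marks its embryonic heart form. That exon, exon 18 of Myom1-202, encodes the extensible segment of EH-myomesin, an isoform best known from the embryonic heart. It lies at chr17:71082203-71082496 on the plus strand of mm10 and is a coding exon of 294 bases, a multiple of 3. The exon is shown because it is the part of the gene that separates the isoforms, from the GENCODE M21 transcript, with the exon in capitals and 3 bases of each neighbouring exon in lower case.
Myom1 exon 18: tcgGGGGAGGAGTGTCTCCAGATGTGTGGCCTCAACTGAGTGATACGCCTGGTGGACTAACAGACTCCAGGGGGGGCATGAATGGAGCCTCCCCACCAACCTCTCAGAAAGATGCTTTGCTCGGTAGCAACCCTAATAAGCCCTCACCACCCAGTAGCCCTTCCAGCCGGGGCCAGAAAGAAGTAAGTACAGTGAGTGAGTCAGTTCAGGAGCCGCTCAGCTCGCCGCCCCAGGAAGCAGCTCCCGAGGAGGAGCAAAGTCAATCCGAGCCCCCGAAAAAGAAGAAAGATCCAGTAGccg

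The exon was included in 14 of 584 informative reads in replicate 1 (2.40%, with 95% limits of 1.43 and 3.98) and in 2 of 115 in replicate 2 (1.74%, limits 0.478 and 6.12). The libraries did not differ beyond counting error (Fisher's exact test, adjusted p = 1). The annotated transcript without the exon, Myom1-203, took 382 reads in replicate 1 and 71 in replicate 2. The other 35 Myom1 exons tested were included in at least 95% of reads in each library. The least included of these was exon 36, only 23 bases long, which 12 of 649 reads in replicate 1 and 5 of 145 in replicate 2 left out.

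**Figure D3:**
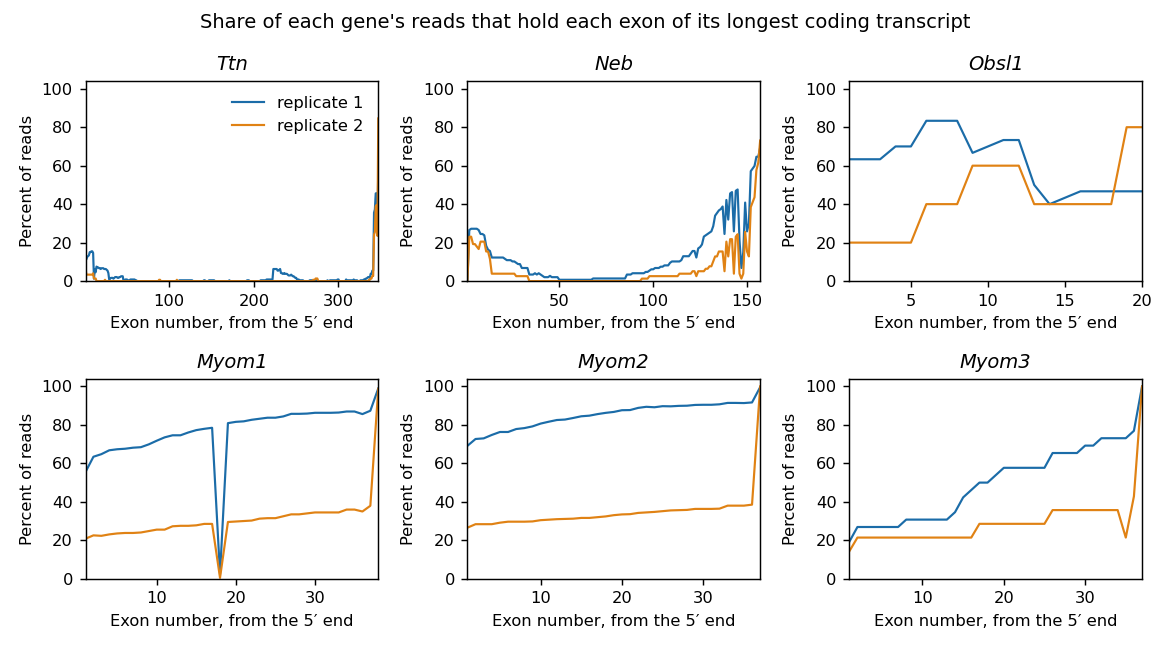
Percent of the reads of each gene that hold each exon of its longest annotated coding transcript, by exon number from the 5′ end, in replicate 1 and replicate 2. The myomesins are covered throughout, with a gap at exon 18 of Myom1, while titin and nebulin are covered at both ends and hardly in the middle.

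Myom3 was covered from the first to the last exon in each library, by few reads. Myom3-201, with 37 exons, took 5 reads in replicate 1 and 1 in replicate 2. Its last exon was in all 26 and 14 reads and exon 1 in 5 and 2. No Myom3 exon had the 20 informative reads in each library that a test of inclusion needed.

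The models of Obsl1 were given 3′ ends at 3 places, all of them annotated edges, which model building can set and which need not be where a molecule ended. In replicate 1, 14 of the 30 reads were in models with the far 3′ end of Obsl1-202, 10 with the end of Obsl1-211, whose last exon runs on from exon 12, and 6 with the neighbouring ends of Obsl1-201 and Obsl1-203. In replicate 2 the counts were 4, 1 and 0 of 5 reads. The commonest Obsl1 model, with 5 reads in replicate 1 and none in replicate 2, joined all 20 exons of Obsl1-202 and a further exon between exon 11 and exon 12. That exon, chr1:75492067-75492342 on the minus strand, is 276 bases long and annotated in Obsl1-205 alone. It was included in 8 of 19 informative reads in replicate 1 and 1 of 3 in replicate 2, too few for the test of inclusion. It was named after its values were seen, as were the other exons below that had under 20 informative reads in a library.

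No titin molecule was read whole. The longest titin model was 12047 bases in replicate 1 and 10196 in replicate 2. None of the 239 reads of replicate 1 and none of the 149 of replicate 2 held both the start codon exon and the last exon, which allows shares of up to 1.26% and 2.01%. Most reads held an end of the gene, and 75 reads of replicate 1 (31.4%) and 18 of replicate 2 (12.1%) held neither the start codon exon nor the last exon. The last exon, which holds the stop codon in the M-band part of titin, was in 137 reads of replicate 1 and 126 of replicate 2. The start codon exon was in 27 and 5 reads. Of the 347 exons, 199 were touched by a read in replicate 1 and 35 in replicate 2, and 146 by none in either library. The longest run without a read covers exons 62 to 87.

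The penultimate titin exon was skipped in 40 of 108 informative reads in replicate 1 and 24 of 59 in replicate 2. This exon 346, known as Mex5, encodes an M-band stretch that lies between the last immunoglobulin domains and binds calpain 3, a muscle protease. It lies at chr2:76705670-76705972 on the minus strand and has 303 bases, which keeps the reading frame when it is left out. Its start is printed as the exon on which the titin result turns, with the first 120 bases in capitals after the last 20 bases of the exon before it.
Ttn exon 346: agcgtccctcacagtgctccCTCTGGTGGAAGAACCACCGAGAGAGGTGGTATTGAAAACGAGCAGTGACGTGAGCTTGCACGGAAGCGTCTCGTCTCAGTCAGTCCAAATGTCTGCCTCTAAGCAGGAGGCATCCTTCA

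The exon was included in 68 of 108 informative reads in replicate 1 (63.0%, with 95% limits of 53.6 and 71.5) and in 35 of 59 in replicate 2 (59.3%, limits 46.6 and 70.9). The mean was 61.1 ± 2.57% (SD, n = 2). The difference of 3.64 percentage points lay within counting error (Fisher's exact test, adjusted p = 1). Exons 343, 344 and 345 just before it were included in every informative read, 84, 88 and 108 in replicate 1 and 36, 38 and 58 in replicate 2. The commonest spliced titin model ran through exon 346 from inside the gene and had 44 reads in replicate 1 and 16 in replicate 2. The next left exon 346 out and had 27 and 16. An unannotated exon of 5765 bases, chr2:76708448-76714212, covers exon 341, exon 342 and the intron between them. It was included in 12 of 12 informative reads in replicate 1 and 4 of 4 in replicate 2, too few for the test of inclusion. A read that splices exon 341 to exon 342 is not counted against it. These counts thus do not measure how often that intron was kept. The commonest spliced model begins at chr2:76711934, within this stretch.

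A short titin with its own last exon was also read. Ttn-202, with 45 exons, ends in an exon of 6520 bases at chr2:76913944-76920463 that overlaps no exon of another annotated titin transcript. This short form is known as novex-3. In replicate 1, 21 reads were in models that end in that exon, 5 of them spliced, with up to 17 exons. In replicate 2 there were 7 such reads, all in single-exon models. Among reads that held either last exon, those in this exon made up 21 of 158 in replicate 1 (13.3%, 8.86 to 19.5). In replicate 2 they made up 7 of 133 (5.26%, 2.57 to 10.5). Among spliced reads there were 5 in this exon and 113 in the last exon of the gene in replicate 1. In replicate 2 these were 0 and 59. The 16 single-exon reads of replicate 1 were in a model that the authors classed as Genomic, outside the full splice chains. Single-exon reads show no junction and need not come from the short form. The 5 spliced reads of replicate 1 are the ones that join this exon to upstream titin exons.

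Near the start of titin, exons 12 and 13, both of 138 bases, varied from read to read in replicate 1. They belong to the region of Z-repeats, by which titin binds alpha-actinin in the Z-disc. Their sequences are printed because the exons are of 1 length and related, with the 81 bases they share, 58.7%, in capitals.
Ttn exon 12, chr2:76965091-76965228: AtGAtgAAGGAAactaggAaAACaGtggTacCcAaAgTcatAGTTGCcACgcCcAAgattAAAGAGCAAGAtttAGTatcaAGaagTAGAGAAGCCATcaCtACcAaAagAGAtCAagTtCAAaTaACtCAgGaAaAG
Ttn exon 13, chr2:76964475-76964612: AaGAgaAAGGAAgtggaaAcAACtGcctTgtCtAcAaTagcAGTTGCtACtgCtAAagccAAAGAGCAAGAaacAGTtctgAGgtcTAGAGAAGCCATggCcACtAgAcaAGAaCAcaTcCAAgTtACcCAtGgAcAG

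In replicate 1, 7 reads held both exons, 2 held exon 12 alone and 9 held neither. No read of replicate 1 held exon 13 alone. In replicate 2, exon 12 was in 2 of 2 informative reads and exon 13 was held by 2 reads, but no read held exon 14, so none spanned the stretch. Exon 11, also of 138 bases, was in 3 reads of replicate 1 and 2 of replicate 2, each time as the last exon held. No read joined it to a later exon, while exon 10 was in 35 and 6 reads and exon 12 in 15 and 2. A last exon was counted only for the exon at its splice edge. A model that ran on unspliced past exon 10 or exon 11 was thus not counted for later exons it covered. Models ending at chr2:76964290, beyond exon 13, held 14 spliced reads of replicate 1 and 6 of replicate 2. The counts of exon 11, and of exon 13 in replicate 2, need not measure how often these exons were used.

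Nebulin was likewise read from its ends. The longest nebulin model was 16859 bases with 112 exons in replicate 1 and 7058 bases with 58 exons in replicate 2. The last exon was in 102 of 147 reads in replicate 1 and 57 of 78 in replicate 2, and the start codon exon, exon 3, was in 40 and 18. Exon 1 of Neb-202 had no read in either library. In replicate 1 every other exon had at least 1 read, and in replicate 2, 96 of the 157 did. No read of replicate 1 held both the start codon exon and the last exon. In replicate 2, 2 reads did, and both joined far exons directly, exon 12 to exon 152 in 1 read and exon 3 to exon 139 in the other.

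The 3′ end of nebulin, which encodes the part anchored in the Z-disc, held most of the exons in partial use among those with enough reads to test. In titin 5 exons could be tested, and in Obsl1 and Myom3 none. Between exon 145 and exon 152, 8 annotated exons and 1 unannotated exon were each used in only part of the reads. All 9 have 93 bases and so keep the reading frame. The 8 annotated ones are printed because they are near-repeats of each other, which bears on what can be told apart. From the 5′ end they are numbered here by position 1 to 9, position 4 being the unannotated exon at chr2:52154570-52154662, whose sequence is not printed. Capitals mark the 56 bases that all 8 share, and pairs of them were identical at 74.2% to 87.1% of bases. All lie on the minus strand of mm10, and the sequences come from GENCODE M21 transcripts.
Neb position 1, chr2:52157832-52157924: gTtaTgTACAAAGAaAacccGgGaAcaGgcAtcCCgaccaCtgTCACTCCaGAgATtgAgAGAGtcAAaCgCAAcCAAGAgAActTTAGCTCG
Neb position 2, chr2:52157291-52157383: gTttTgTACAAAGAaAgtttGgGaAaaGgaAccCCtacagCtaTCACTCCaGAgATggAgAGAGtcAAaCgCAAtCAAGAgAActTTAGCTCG
Neb position 3, chr2:52156355-52156447: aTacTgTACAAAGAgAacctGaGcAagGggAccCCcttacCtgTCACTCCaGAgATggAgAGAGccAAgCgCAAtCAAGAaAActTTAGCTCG
Neb position 5, chr2:52153683-52153775: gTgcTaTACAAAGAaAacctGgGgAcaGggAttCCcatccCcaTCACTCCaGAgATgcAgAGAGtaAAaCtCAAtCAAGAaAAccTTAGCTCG
Neb position 6, chr2:52153056-52153148: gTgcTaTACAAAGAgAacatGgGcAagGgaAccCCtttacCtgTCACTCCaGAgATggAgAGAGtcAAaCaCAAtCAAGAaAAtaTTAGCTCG
Neb position 7, chr2:52151364-52151456: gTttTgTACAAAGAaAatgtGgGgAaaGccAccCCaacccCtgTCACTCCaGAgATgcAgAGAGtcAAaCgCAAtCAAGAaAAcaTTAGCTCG
Neb position 8, chr2:52150967-52151059: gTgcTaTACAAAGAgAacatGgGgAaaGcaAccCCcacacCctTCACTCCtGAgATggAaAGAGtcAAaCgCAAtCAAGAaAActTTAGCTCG
Neb position 9, chr2:52150537-52150629: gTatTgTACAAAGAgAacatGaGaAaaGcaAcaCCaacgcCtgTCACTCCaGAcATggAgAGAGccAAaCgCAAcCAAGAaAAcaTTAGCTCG

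Position 7 was the exon most often kept, in 58 of 72 informative reads in replicate 1 (80.6%, with 95% limits of 70.0 and 88.0) and 17 of 22 in replicate 2 (77.3%, limits 56.6 and 89.9). Position 9 was in 41 of 78 reads (52.6%) and 10 of 29 (34.5%), and position 8 in 33 of 74 (44.6%) and 8 of 25 (32.0%). Position 1 was in 31 of 70 reads in replicate 1 (44.3%, limits 33.2 and 55.9) and 3 of 20 in replicate 2 (15.0%, limits 5.24 and 36). Position 6 was in 30.6% and 9.52% of reads, and the unannotated position 4 in 6 of 70 and 0 of 20. Positions 2, 3 and 5 were in 14.3%, 11.4% and 13.9% of the reads of replicate 1 and in 1, 1 and 0 of 20 reads of replicate 2. Inclusion was thus lower in replicate 2 at each of these 9 exons, which were largely measured on the same reads. The read of replicate 2 that joins exon 12 to exon 152 counts as leaving out each of the 9. None of the differences held after adjustment. The lowest unadjusted p was 0.0194, for position 1 (Fisher's exact test, adjusted p = 1, difference 29.3 percentage points). The exons just 3′ of the stretch, 152 to 156, were in every informative read of both libraries.

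Over all genes 0.0165% of the 24291 exons tested were called between the libraries, which is 4 exons, and 205 had an unadjusted p under 0.05. Of the 97 member exons tested, which were 42 in Myom2, 36 in Myom1, 14 in nebulin and 5 in titin, 0 were called by Fisher's exact test. At an unadjusted p under 0.05 there were 2 of them, Neb position 1 and the unannotated Myom2 exon of 126 bases named above. Exons near the 3′ end are overrepresented among them, since an exon needs 20 informative reads in each library.

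**Figure D4:**
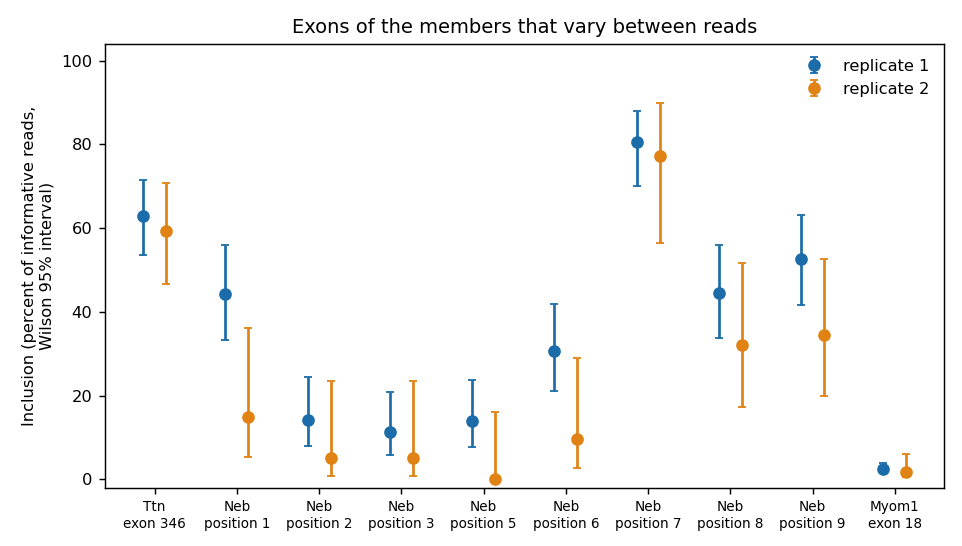
Inclusion of the 10 member exons that varied between reads, in percent of the reads informative for the exon, with Wilson 95% intervals, in replicate 1 and replicate 2. Titin exon 346 lies near 60% in both libraries (63.0% and 59.3%), Neb position 7 near 80% (80.6% and 77.3%) and Myom1 exon 18 near 0 (2.40% and 1.74%).

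Single reads showed how the 9 nebulin exons were combined. The whole stretch was spanned by 70 reads in replicate 1, in 17 combinations, and by 20 reads in replicate 2, in 6, of which 5 were also seen in replicate 1. The commonest combination held position 7 alone, in 21 reads of replicate 1 (30.0%, with 95% limits of 20.5 and 41.5) and 10 of replicate 2 (50%, limits 29.9 and 70.1). The next held none of the 9, in 14 reads (20.0%) and 5 reads (25%). In replicate 2, 1 of these is the read that joins exon 12 to exon 152. Then came positions 1, 7, 8 and 9 together, in 6 and 2 reads. All 9 exons were present in 3 reads of replicate 1 and in no read of replicate 2.

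Some exons were kept only together with others. The counts here are of the reads that spanned the whole stretch. Every such read that held any of the 9 exons held position 7, 56 reads in replicate 1 and 15 in replicate 2. Every read with an exon of positions 2 to 6 also held position 1, in 21 of 21 reads and 1 of 1 read. Of the reads with position 1, 30 of 31 in replicate 1 and 3 of 3 in replicate 2 held position 9. Reads with at most 1 of the exons made up 35 of 70 (50%, limits 38.6 and 61.4) in replicate 1 and 15 of 20 (75%, limits 53.1 and 88.8) in replicate 2, and these intervals overlap. Reads of 1 library share its preparation, so the counts describe these libraries.

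**Figure D5:**
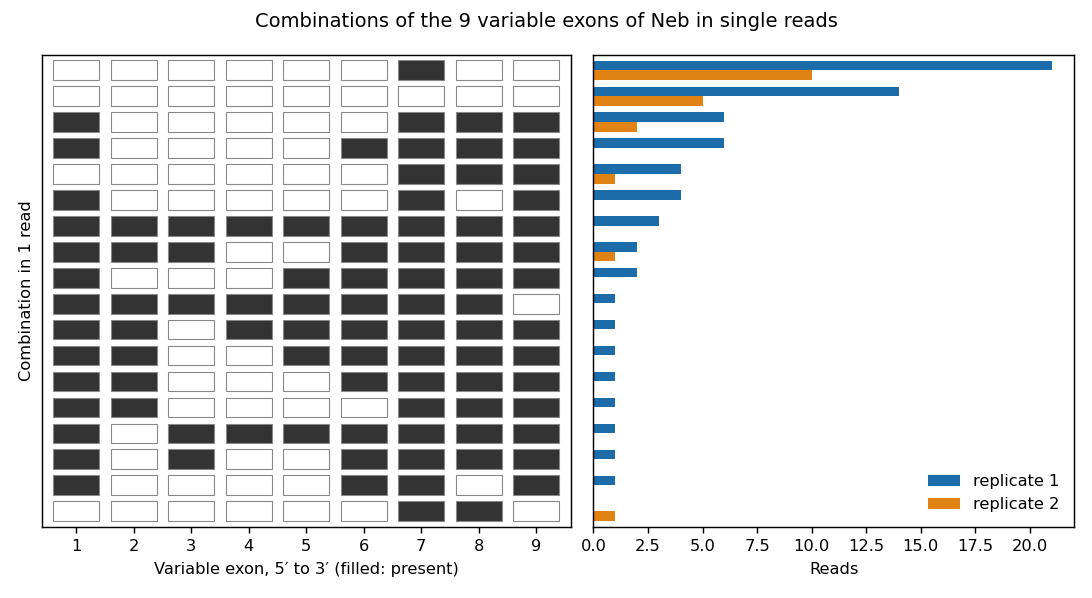
Combinations of the 9 variable exons of nebulin in single reads that span the stretch: each row on the left is a combination (filled boxes mark exons present, 5′ to 3′), with its reads in replicate 1 and replicate 2 on the right. Position 7 is filled in every combination but the empty one, and the upper 2 rows hold 35 of 70 reads in replicate 1 and 15 of 20 in replicate 2.

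Further upstream, nebulin had 3 more exons in partial use and a pair that replaced each other. Exon 143 was in 38 of 68 informative reads in replicate 1 and 3 of 18 in replicate 2. Exon 140 was in 42 of 62 and 9 of 17, and exon 138 in 32 of 57 and 2 of 14. In replicate 2 the read that joins exon 12 to exon 152 counts as leaving out all 3 of these exons. The read that joins exon 3 to exon 139 counts as leaving out exon 138. The pair consists of exon 123 of Neb-202 and an exon annotated in Neb-210, each of 105 bases. A pair of mutually exclusive exons is also known in the human gene. The pair is printed because the exons are of equal length and yet share 40 bases only, 38.1%, shown in capitals.
Neb exon 123, chr2:52186012-52186116: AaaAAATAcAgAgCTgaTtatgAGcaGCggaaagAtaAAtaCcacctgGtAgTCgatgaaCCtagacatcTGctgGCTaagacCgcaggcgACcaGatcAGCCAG
Neb-210 exon, chr2:52185271-52185375: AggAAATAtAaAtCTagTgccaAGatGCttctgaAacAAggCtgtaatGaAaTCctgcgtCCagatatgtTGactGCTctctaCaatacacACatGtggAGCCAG

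In replicate 1, 17 reads held exon 123 without the other exon, 6 held the other without exon 123, and no read held both or neither. In replicate 2, 2 reads held each of them alone and 2 held neither, which were the reads that joined exon 12 to exon 152 and exon 3 to exon 139. No read of either library held both exons.

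Known partners of these proteins included some of the most abundant transcripts of the muscle. Of 48 genes of the sarcomere scaffold, the partners and chaperones of titin, nebulin and the M-band, 45 had enough reads, and 8 were called as higher in replicate 1 and 1 as higher in replicate 2. That is 9 of 45, near the 20.6% of all genes called. The median log2 ratio of the 45 was 0.38, and that of all genes tested was 0.08. The most abundant were Ckm, the muscle creatine kinase held at the M-band (60620 ± 817 CPM, mean ± SD, n = 2), and Actn3, the fast-fibre alpha-actinin (5187 ± 1890 CPM). Mybpc2, the fast myosin-binding protein C, came to 5157 ± 3609 CPM, and Actn2, the alpha-actinin of all fibres, to 2508 ± 1378 CPM. Myoz1, a Z-disc protein that binds calcineurin, came to 2259 ± 221 CPM, and Tcap, the cap of titin's N-terminal end, to 1917 ± 535 CPM.

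The called partners were Mybpc2 (9627 reads in replicate 1 and 2882 in replicate 2), Mybpc1 (2558 and 577), Ankrd23 (1707 and 651), Myot (1337 and 505), Sqstm1 (264 and 88), Trim63 (235 and 77), Lmod2 (57 and 17) and Nbr1 (52 and 15), all higher in replicate 1. Trim63, Nbr1 and Sqstm1 take part in protein turnover at the titin kinase end, and Myot is a Z-disc protein. With the length trend removed, Mybpc1, Lmod2, Sqstm1 and Trim63 kept their calls, while Mybpc2, Ankrd23, Myot, Nbr1 and Csrp3 lost theirs. Tcap gained a call in that setting. Csrp3, the muscle LIM protein, had 139 reads in replicate 1 and 374 in replicate 2 and was the partner called as higher in replicate 2. Nebl, a shorter relative of nebulin known from the heart, had no read in either library.

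Regulators of titin and nebulin splicing were present at low to moderate counts. Rbm20, which represses titin exons in the heart, had 44 reads in replicate 1 and 20 in replicate 2. Rbm24, a muscle splicing factor, had 257 and 129. Of the 12 regulators, 3 were called, all as higher in replicate 1: Mbnl2 (256 and 68 reads), Celf2 (65 and 14) and Rbfox1 (40 and 11). These are 3 of 12, and 20.6% of all genes were called. Srsf10 had 12 and 24 reads and Hnrnpl 66 and 86, and neither was called. With the length trend removed Mbnl2 lost its call and Srsf10 gained one, which it also had in full splice chains and in spliced models. Rbm20 was also called in full splice chains, and Rbfox2 in full splice chains and in spliced models. The median log2 ratio of the 12 was 0.69, and that of all genes tested was 0.08.

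Genes closest to a member in level, by distance of log2(CPM + 1) over only 2 libraries, were Nipsnap2, Idh3a and Slc25a3 for Myom2 and Prkaca, Uqcrc2 and Ctsd for Myom1. They included Ptov1 and Tmbim6 for titin and were Npepl1, Usp4 and Xbp1 for nebulin, at distances from 0.00958 to 0.143 over these 4 members. For Obsl1 they were Map3k3, with the same counts, Adamts1 and Pla2g6. Myom3 had the same counts as 7 other genes, among them Lama4, Plcb3 and Ogfod3. With 2 libraries such closeness says that the counts are alike and no more.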

How the data were processed

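For each library the authors deposited counts, the raw number of reads of every transcript model, and the exons of the models, per the file headers, with no normalization. Their notes name mm10 and GENCODE M21, and the exon files name TALON, which assigns long reads to models. No source used here names the aligner, the platform or versions. Model ends often lie on annotated edges beyond the read (of the members' model ends, 69.2% to 100.0% per gene and library), so a terminal exon was counted for the exon at its splice edge only, and model length is not read length.

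Reads were summed over models of annotated genes. CPM used these totals, 1248854 and 1106450, and a count of 0 allows up to 3 reads (2.40 and 2.71 CPM). Libraries were compared by Fisher's exact test with Benjamini-Hochberg adjustment (Python 3.11.15, scipy 1.17.1), for genes of at least 10 reads in sum, with ratios scaled by TMM factors (edgeR 4.0.16, R 4.3.3) and a prior count of 0.5. Internal exons needed 20 informative reads in each library, and a call needed 10 percentage points. All genes and exons were tested and adjusted together. Tests were tested on simulated data. Alternatives were DESeq2 1.42.0 size factors, the total, other filters, model classes and a length trend (statsmodels 0.14.6).

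Named were all members, their leading models, exons at 10 to 90% inclusion, called or annotated under 10%, the leading and called list genes, and the 3 nearest genes. Some genes that this rule or the lists hold are not reported here. The members, lists and rule were chosen with earlier results of these data known. The design has no condition to compare, so p-values measure only these libraries.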

Additional observations from a re-analysis of the deposited data

Results flagged for a closer look

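Reads on the opposite strand of a member, in models that the authors assigned to no annotated gene, were above the 3 reads that a count of 0 allows in both libraries for 4 members. These data were outside the comparisons. Opposite to titin there were 16 reads in replicate 1 and 83 in replicate 2, opposite to nebulin 19 and 24, opposite to Myom1 7 and 19, and opposite to Myom2 5 and 29. The largest such model held 27 reads, opposite to Myom2 in replicate 2. Within the span of Myom1, the annotated genes Myl12a and Gm26561 together had 593 reads in replicate 1 and 956 in replicate 2. No source used here says how reads got their strand, and where these reads come from was not tested.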

How the results depend on the processing

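No paired analysis was possible because there is 1 group. The 1845 genes called came to 596 with the length trend removed, and the members called to 0, with log2 ratios of -0.22 for Ttn, -0.10 for Myom1, -0.30 for Myom2 and -0.0101 for Myom3. Members called came to 3 of 5 tested with full splice chains only (Myom1, Myom2 and Obsl1) and 4 with spliced models only, chosen after the data were seen. Calls among all genes tested were 1923 of 8973 by the total and 596 of 8973 without the length trend. In full chains they were 1764 of 7815, and in spliced models 1645 of 7863. Calls higher in replicate 1 were 48.2% of all calls, 57.9% by the total, 36.1% without the length trend and 59.0% in spliced models; TMM moved ratios by -0.19 against the total. Scaffold list calls, 9 of 45, came to 14 by the total, 17 of 39 in full chains and 5 of 45 without the length trend, and regulator calls, 3 of 12, to 6 of 11 in full chains and 5 of 11 in spliced models. Exon calls, 4, came to 9 with the mean of both junctions and 8 in full chains, with 0 member exons called in each setting. Counting Known models only, mean CPM was 1.70 for Ttn, 3.71 for Neb, 2.05 for Obsl1, 188 for Myom1, 407 for Myom2 and 2.45 for Myom3, and the mean full chain share 1.09% for Ttn, 3.66% for Neb, 16.7% for Obsl1 and 13.2% for Myom3. In spliced models the Myom3 share with both codon exons was 42.5%. With either library left out, mean CPM ranged from 135 to 191 for Ttn, 70.5 to 118 for Neb, 4.52 to 24.0 for Obsl1, 364 to 596 for Myom1, 694 to 991 for Myom2 and 12.7 to 20.8 for Myom3. Of 21 other inclusion values, 1 moved, Myom1 exon 18 to 1.09% in full chains. The cause of these changes was not tested beyond the construction of each setting. Few reads limit Obsl1, Myom3 and the Neb exons in replicate 2. For the middle of Ttn and Neb, depth and the reach of the reads were not told apart.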

Other observations

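In replicate 1 a run of titin reads lay in the middle of the gene, apart from both ends. Exon 223, at chr2:76807061-76807203, was the most 5′ exon of 13 reads, and exons 223 to 231 were in 13 to 15 reads each, while exons 219 to 222 before them were in 2. In replicate 2 none of these exons had a read. Other internal titin exons outside the 3′ end were the most 5′ exon of at most 5 reads in replicate 1. These reads show where models begin, and model ends need not be ends of the RNA.

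At the titin 5′ end, 14 spliced reads in replicate 1 and 6 in replicate 2 were in models that end at chr2:76964290, the annotated end of Ttn-207, a transcript annotated with a retained intron. In nebulin, 6 reads of each library were in models that end at chr2:52310529, the 3′ edge of exon 13, which is no annotated transcript end. Where the RNA of these reads ended is not known.

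Intron chains differed in how often they recurred. Of 107 spliced Myom2 chains 38 were in both libraries and 58 rested on 1 read, while of 136 nebulin chains 13 were in both and 114 rested on 1 read.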
